A study of Mus musculus with 6 samples.

Results

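The genes described here are the 8 that carry out the urea cycle in mouse hepatocytes: Nags, Cps1, Otc, Ass1, Asl and Arg1, which encode its enzymes, and Slc25a15 and Slc25a13, which encode the mitochondrial carriers that serve it. They were picked by symbol out of 53599 genes in the count table, and all 8 were among the 12691 genes that passed the filter on low counts. RNA-seq was carried out on liver hepatocytes taken 4 days after mice received an adeno-associated virus (AAV8). In the Sox4 group (3 libraries, genotype labelled Sox4) the vector was AAV8-TBG-HA-Sox4-P2A-Cre, which carries HA-tagged mouse Sox4 and Cre recombinase. In the empty vector group (EV, 3 libraries, genotype labelled WT) it was AAV8-TBG-Cre, so both groups received Cre. TBG, which drives the transgene in both vectors, is a promoter active in hepatocytes. The study's methods describe Rosa-LSL-Cas9-EGFP mice on a C57BL/6J background, in which Cre switches on Cas9 and EGFP, and this applied to both groups. Age and sex are not given in the labels. The study's methods give mice of 4 to 8 weeks for its expression experiments, and its reporting summary states that all mice were male. Cells were dissociated enzymatically and purified on a Percoll density gradient without sorting. A library may therefore hold hepatocytes that the vector did not reach.

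The urea cycle turns toxic ammonia into urea and is carried out in full almost only in the liver, chiefly by periportal hepatocytes, those near the vessels that bring blood from the gut. Its first steps run in the mitochondrion. NAGS makes N-acetylglutamate, the obligate activator of CPS1, CPS1 joins ammonia and bicarbonate into carbamoyl phosphate, and OTC joins carbamoyl phosphate to ornithine to give citrulline. The later steps run in the cytosol, where ASS1 joins citrulline to aspartate, ASL splits the product into arginine and fumarate, and ARG1 splits arginine into urea and ornithine. SLC25A15 exchanges ornithine for citrulline across the inner mitochondrial membrane, and SLC25A13 (citrin) exports the aspartate that ASS1 needs.

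Sox4, the delivered gene, had 2, 0 and 3 counts in the EV libraries and 21697, 15097 and 11816 in the Sox4 libraries. Total counts ranged from 15090629 to 16964860 per library. Trimmed mean of M-values (TMM) scaling, which sets libraries to a common level over most genes, gave the Sox4 libraries an effective size 1.48 times that of the EV libraries, against 1.07 times for the total counts. Levels below are CPM (counts scaled to a library of 1000000) on TMM-scaled library sizes unless another scale is named. Transcripts of hepatocytes were abundant in both groups, with Alb, the albumin gene, at 7.27 to 9.10% of all counts in each library. In bulk RNA, fewer cells of a type cannot be told apart from less RNA per cell.

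Of the 8 genes, 6 fell in the Sox4 libraries, 0 rose and 2 did not pass the test, at an adjusted p under 0.05 in edgeR's quasi-likelihood test with Benjamini-Hochberg adjustment. Otc, Nags, Asl, Ass1 and Arg1 fell to between 0.271 and 0.356 of their EV level, so that these 5 were at least 2-fold lower. Slc25a13 fell by 0.57 on the log2 scale, whereas Cps1 and Slc25a15 were lower by less and were not called. Across all genes tested, 26.0% were called lower, 29.0% higher and 55.1% in either direction, and 11.9% were called and at least 2-fold lower. The median log2 fold change of the 8 genes was -1.53, against 0.04 for all genes tested. On TMM-scaled sizes every Sox4 library lay below every EV library in 7 of the 8, which was the case for 29.9% of all genes tested. Scaled by total counts alone, Cps1 and Slc25a13 overlapped between groups as well as Slc25a15. The shares over all genes tested show how widespread change was at this time point. Each gene is therefore read below by its size and its libraries rather than by its call alone.

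**Figure D1:**
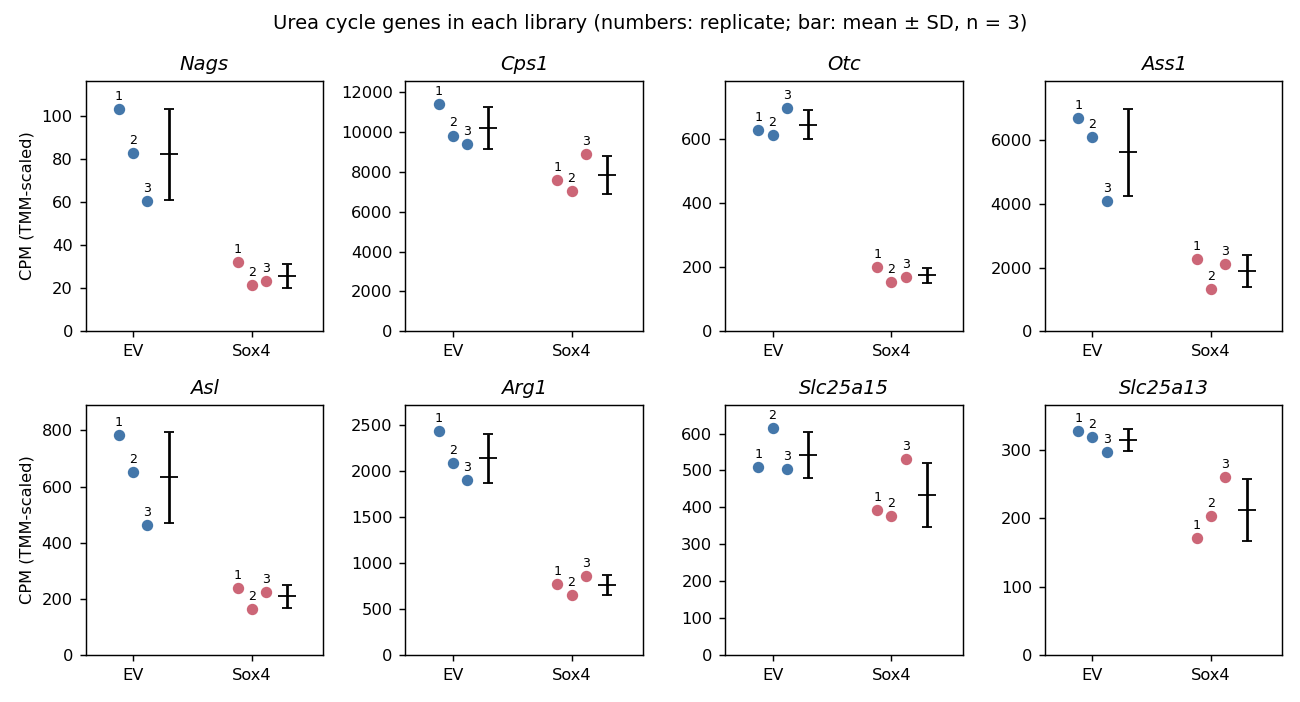
Level of each urea cycle gene in each library, as CPM on TMM-scaled library sizes, with EV in blue, Sox4 in red, the replicate number above each point and black bars for mean ± SD (n = 3). All Sox4 libraries lie below all EV libraries in 7 of the 8 panels. The exception is Slc25a15, in which Sox4 replicate 3 at 532 CPM lies within the EV libraries. When libraries were scaled by their total counts alone, Cps1 and Slc25a15 pointed the other way, and Cps1 and Slc25a13 also overlapped between groups.

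Otc showed the largest change. EV replicates 1 to 3 held 629, 613 and 698 CPM of it, and the Sox4 replicates 201, 154 and 170.5 CPM. The groups lay far apart, the highest Sox4 library being well under the lowest EV library. Mean levels were 646 ± 45.1 (SD, n = 3) and 175 ± 24.1, 3.69-fold lower in Sox4 (-1.89 ± 0.13 on the log2 scale, difference ± SE, as in the paragraphs that follow; adjusted p 7.13e-06). Otc was also one of the steadiest genes of the cycle among EV libraries, with a coefficient of variation of 6.98%.

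Nags, whose product sets the activity of CPS1, was the least abundant of the 8. It had 103, 82.9 and 60.5 CPM in EV and 32.2, 21.6 and 23.3 CPM in Sox4. The EV libraries were widely spread, with a coefficient of variation of 25.9%, but none reached down to the Sox4 libraries. The mean went from 82.1 ± 21.3 to 25.7 ± 5.73, a log2 difference of -1.68 ± 0.28 at an adjusted p of 0.000234. An antisense gene, Gm11586, overlaps 15.6% of the exon sequence of Nags, but it had at most 2 counts in a library.

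Cps1, the most abundant transcript of the cycle by counts, behaved differently from Otc and Nags. Its level was 11400, 9821 and 9414 CPM in EV and 7567, 7041 and 8878 CPM in Sox4. The groups did not overlap on this scale, but Sox4 replicate 3 came close to EV replicate 3. Scaled by total counts alone, the groups overlapped. The mean was 10210 ± 1052 in EV and 7829 ± 946 in Sox4, a log2 fold change of -0.38 (SE 0.13) that did not pass the threshold (adjusted p 0.0782). It passed with the DESeq2 Wald test (adjusted p 0.0211) and without Sox4 replicate 3 (log2 fold change -0.48, adjusted p 0.031), and it turned to 0.08 (adjusted p 0.679) when libraries were scaled by total counts alone. Cps1 ranked 7 among all genes by counts in both groups.

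The 3 cytosolic enzymes all fell. Ass1 had 6688, 6099 and 4074 CPM in EV and 2264, 1323 and 2110 CPM in Sox4, with EV replicate 3 the lowest control and Sox4 replicate 2 the lowest library of all. The groups did not overlap. The mean went from 5620 ± 1371 to 1899 ± 505, a log2 difference of -1.57 ± 0.33 at an adjusted p of 0.000641. Ass1 shares 38.6% of its 50-base stretches with the processed pseudogene Gm5424, so the division of reads between them is uncertain. The pseudogene held counts equal to 0.769 to 1.20% of those of Ass1.

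Asl, in which EV replicate 3 was again the lowest control, had 783, 653 and 463 CPM in EV and 238, 163 and 225 CPM in Sox4. All Sox4 libraries were below all EV libraries, with means of 633 ± 161 and 209 ± 40.3, a log2 difference of -1.60 ± 0.28 at an adjusted p of 0.000221. Arg1, which makes the urea itself, had 2426, 2082 and 1901 CPM in EV and 769, 651 and 860 CPM in Sox4. Its groups were tighter, with means of 2137 ± 267 and 760.2 ± 105, a log2 difference of -1.49 ± 0.16 at an adjusted p of 6.08e-05. Arg1 is also made by macrophages in some settings. Markers of Kupffer cells, the macrophages of the liver, summed to between 15.2 and 33.4 CPM among EV libraries and between 36.5 and 79.6 among Sox4 libraries, and their part in the level of Arg1 was not tested.

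The carriers changed less than these enzymes. Slc25a13 had 328, 319 and 297 CPM in EV and 171, 204 and 261 CPM in Sox4, with no overlap on this scale. Its means were 315 ± 16.0 and 212 ± 45.4, a log2 difference of -0.57 ± 0.18 at an adjusted p of 0.0132. Scaled by total counts alone, its groups overlapped. Slc25a15 had 508, 615 and 504 CPM in EV and 393, 375 and 532 CPM in Sox4, and here Sox4 replicate 3 was above 2 of the EV libraries. Its means were 542 ± 62.7 and 434 ± 85.8, a log2 difference of -0.32 ± 0.18 at an adjusted p of 0.129. This call also turned on Sox4 replicate 3, without which the log2 fold change was -0.49 and the adjusted p 0.0181, and the direction turned to 0.15 (adjusted p 0.458) with library size alone.

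Libraries of a group differed from each other in the same way for most of these genes. EV replicate 3 was the lowest EV library for 7 of the 8 genes, Otc being the exception, for which it was the highest. EV replicate 1 was the highest for 6 of the 8. In the Sox4 group, replicate 2 was the lowest for 7 of the 8, Slc25a13 being the exception. The Sox4 level itself was 1086, 770.1 and 598 CPM in Sox4 replicates 1, 2 and 3. Replicate 3, with the least Sox4, was the highest of its group for Cps1, Arg1, Slc25a15 and Slc25a13, and replicate 1, with the most, was the highest for Nags, Otc, Ass1 and Asl.

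How far a gene fell depended on the scaling of the libraries. With library size alone the median of all genes tested moved from 0.04 to 0.51 on the log2 scale, and 79.9% of called genes were higher in Sox4 against 52.7% with TMM. Otc (-1.42), Nags (-1.21), Asl (-1.13), Ass1 (-1.10) and Arg1 (-1.02) still fell on this scale. Slc25a13 lost its call (-0.10, adjusted p 0.601), and Cps1 and Slc25a15 were above 0 without passing the test. All 3 were nevertheless below the median of all genes on that scale. Otc, Nags, Asl, Ass1 and Arg1 were called lower in all 15 alternative analyses, Slc25a13 in 14, Cps1 in 2 and Slc25a15 in 1, and none of the 8 was called higher in any of them.

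**Figure D2:**
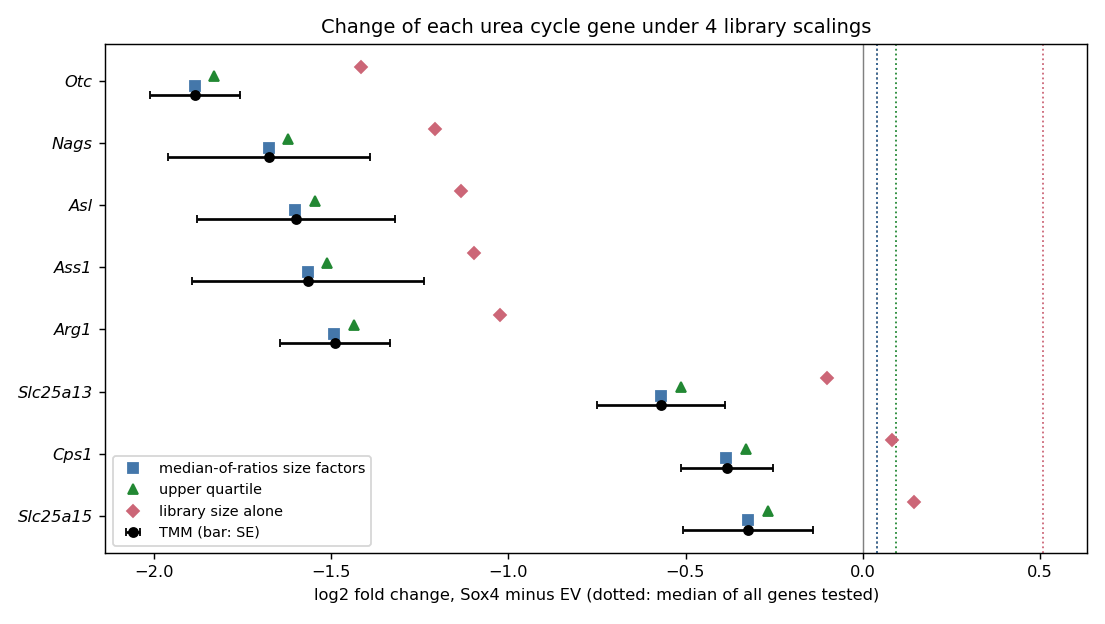
Log2 fold change, Sox4 minus EV, of each urea cycle gene under 4 ways of scaling libraries: TMM (black, bar ± SE), median-of-ratios size factors (blue), upper quartile (green) and library size alone (red), with dotted lines for the median of all genes tested under each. Otc, Nags, Asl, Ass1 and Arg1 stay at -1.02 or lower under every scaling shown, whereas Cps1 and Slc25a15 cross 0 with library size alone.

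Ratios between the genes within a library do not depend on scaling. Arg1 counts were 21.3, 21.2 and 20.2% of Cps1 counts in the EV libraries and 10.2, 9.25 and 9.69% in the Sox4 libraries. The ratio was almost the same in the libraries of a group, although the level of either gene was not, and it changed by -1.11 (SE 0.05) on the log2 scale. Otc went from between 5.51 and 7.41% of Cps1 counts to between 1.92 and 2.66% (change -1.51, SE 0.18), and Nags from between 0.642 and 0.903% to between 0.262 and 0.426% (change -1.28, SE 0.26). Ass1 (change -1.19, SE 0.25) and Asl (change -1.20, SE 0.20) also had no overlap between groups. Each of these 5 ratios gave p 0.1 in a two-sided exact permutation test, the smallest that 3 against 3 libraries allow, and 0.14 adjusted over the 7 ratios to Cps1. Cps1 was taken as the reference after the data were seen, and these 5 genes had already been found at least 2-fold lower. Their lack of overlap therefore describes the size of the shift and adds no further support. The ratio of Slc25a15 to Cps1 overlapped between groups, at 4.46, 6.26 and 5.36% in EV and 5.19, 5.33 and 5.99% in Sox4 (change 0.05, SE 0.16, exact permutation p 1). The ratio of Slc25a13 to Cps1 overlapped between groups as well (change -0.20, SE 0.13, exact permutation p 0.3).

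As a result the make-up of the cycle's transcripts shifted. Cps1 held 49.9, 48.4 and 54.1% of the counts of the 8 genes in EV and 65.0, 70.9 and 68.0% in Sox4. Ass1 held 29.2, 30.1 and 23.4% and then 19.4, 13.3 and 16.1%. Neither gene's share overlapped between groups. Measured against the geometric mean of all 8 genes, Slc25a15 (0.85), Cps1 (0.80) and Slc25a13 (0.60) were higher in Sox4 on the log2 scale, and Otc (-0.70), Asl (-0.40) and Arg1 (-0.30) lower, each at exact permutation p 0.1 and 0.133 adjusted over the 8 genes. Nags (-0.47) and Ass1 (-0.38) were lower by this measure with p 0.2. Such ratios show that the genes changed unequally and not which of them stayed still.

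**Figure D3:**
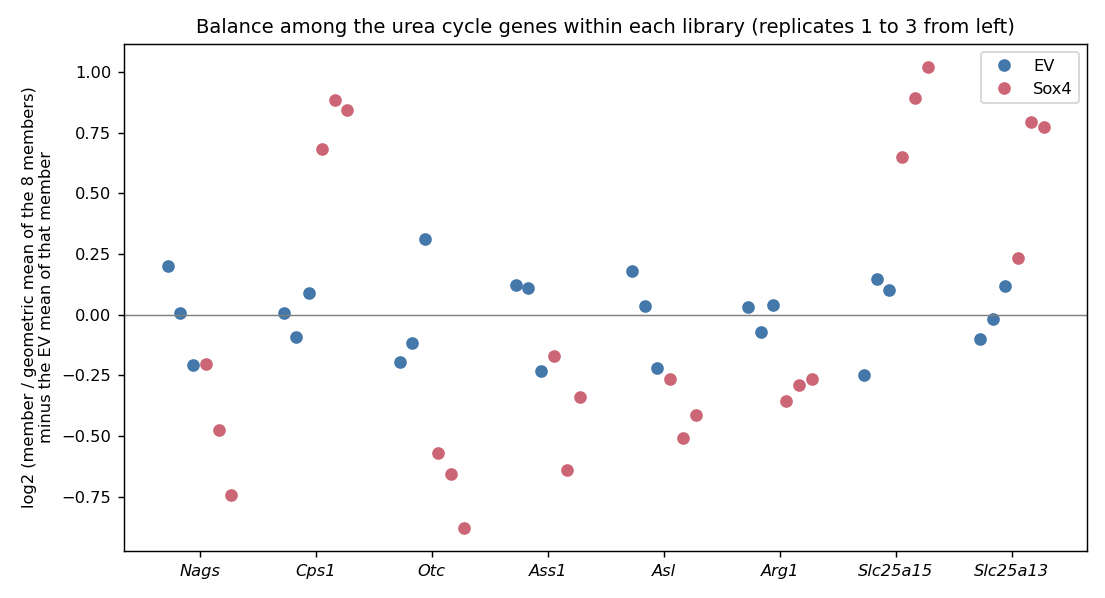
Log2 ratio of each urea cycle gene to the geometric mean of the 8 genes in the same library, less that gene's EV mean, with EV in blue, Sox4 in red and replicates 1 to 3 from left to right. Cps1, Slc25a15 and Slc25a13 lie above 0 in all Sox4 libraries and the other 5 genes below it, and Sox4 replicate 1 overlaps the EV libraries for Ass1 and, narrowly, for Nags.

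Levels of different genes were compared per length, as CPM per kb of exon sequence. In EV the order was Ass1 (2328 ± 568), Cps1 (1839 ± 189), Arg1 (959 ± 120), Otc (152 ± 10.6), Asl (131 ± 33.4), Slc25a15 (96.4 ± 11.1), Slc25a13 (82.8 ± 4.21) and Nags (28.9 ± 7.50). Ass1 and Cps1, Otc and Asl, and Asl and Slc25a15 overlapped between libraries, and the other neighbours did not. In Sox4 the order was Cps1 (1409 ± 170), Ass1 (786 ± 209), Arg1 (341 ± 47.0), Slc25a15 (77.0 ± 15.3), Slc25a13 (55.8 ± 11.9), Asl (43.2 ± 8.34), Otc (41.3 ± 5.69) and Nags (9.05 ± 2.02). Here Cps1 stood clear of Ass1, and Slc25a15, Slc25a13, Asl and Otc overlapped with their neighbours in the order. Otc went from rank 4 to rank 7. Exon lengths come from GENCODE M21 and join all annotated transcripts of a gene, so the order of close genes depends on which transcripts are present.

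Together the 8 genes took 1.97, 1.71 and 1.48% of all counts in the EV libraries and 1.37, 1.17 and 1.54% in the Sox4 libraries. These shares of whole libraries overlapped (difference -0.36 percentage points, two-sided exact permutation p 0.2). Cps1 alone held 0.869 ± 0.099% and 0.921 ± 0.112% (p 0.5 in the same exact permutation test). On TMM-scaled library sizes the direction for Cps1 turned, from 1.02% in EV to 0.783% in Sox4, and the difference for all 8 genes was -0.86 percentage points, both without overlap and at exact permutation p 0.1. Otc, Ass1, Asl, Arg1 and Nags together held 0.776 ± 0.154% in EV and 0.361 ± 0.0777% in Sox4, without overlap (difference -0.41 percentage points, exact permutation p 0.1, 0.133 adjusted over the 20 gene sets compared). These 5 are the genes found at least 2-fold lower in the same libraries. The lack of overlap in their sum therefore follows from how they were chosen and adds no further support.

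Sequence upstream of the start sites was taken from RefSeq promoters on GRCm38.p6 (the counts were made on GRCm39), which matched 5 of the 8 genes with 6 entries. Cps1, Asl and Arg1 had no entry. The 250 bases before the start are printed for Otc, the gene with the largest change, for Slc25a15, the gene with the smallest (the more upstream of its 2 entries), and for Nags, added after its match was seen. Capitals mark CAAAG, the core letters bound by HNF4A, a master regulator of hepatocyte genes.
Otc, chrX:10252055-10252304, plus strand: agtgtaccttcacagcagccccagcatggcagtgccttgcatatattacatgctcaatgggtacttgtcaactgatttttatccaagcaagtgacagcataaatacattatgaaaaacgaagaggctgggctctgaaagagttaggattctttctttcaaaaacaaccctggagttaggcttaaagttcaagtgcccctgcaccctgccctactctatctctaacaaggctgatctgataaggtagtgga
Slc25a15, chr8:22398622-22398871, minus strand: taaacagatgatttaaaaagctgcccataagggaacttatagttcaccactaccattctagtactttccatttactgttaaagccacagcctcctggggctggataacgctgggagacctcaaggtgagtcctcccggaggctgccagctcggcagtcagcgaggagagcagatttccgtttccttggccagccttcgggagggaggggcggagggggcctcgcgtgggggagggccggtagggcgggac
Nags, chr11:102145263-102145512, plus strand: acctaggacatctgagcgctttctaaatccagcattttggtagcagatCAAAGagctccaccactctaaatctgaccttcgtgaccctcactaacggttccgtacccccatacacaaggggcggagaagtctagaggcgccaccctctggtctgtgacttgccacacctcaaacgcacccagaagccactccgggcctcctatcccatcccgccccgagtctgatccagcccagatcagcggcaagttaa

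Letters were searched on both strands. In these upstream windows CAAAG occurred only in Nags, 202 bases before the start, while 48.6% of 32851 promoters held it. In the full window, which reaches 50 bases past the start, Otc held it too, at position 14 on the opposite strand, against 53.9% of all promoters. CTTTGT, the core letters of SOX proteins, occurred in 0 of the 6 full windows and in 18.7% of all promoters. TTNNGCAA, letters bound by C/EBP factors, occurred in 0 of 6 (10.8% of all), as did TGACGTCA, the cyclic AMP response element (1.79% of all). Every CTTTGT holds a CAAAG on the opposite strand, so these searches overlap. All windows lie at start sites, whereas the paper reports that newly closed regions were enriched far from them. Such distal sequence was not searched, so the counts do not show whether SOX4 or HNF4A binds near these genes. The GC content upstream was 43.6% for Otc, under the median of 52.4% over all promoters, and 55.6% for Nags, 62.8% for Slc25a13, 75.6% for Ass1 and 57.6 and 80.4% for the entries of Slc25a15.

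Genes related to members of the cycle were examined next, to see whether relatives moved in their place. Cad, which holds the cytosolic carbamoyl phosphate synthetase used for pyrimidines, was at 30.0 ± 2.85 CPM in EV and 36.2 ± 6.35 in Sox4 (log2 fold change 0.27, adjusted p 0.153), and was called higher with library size alone (0.74, adjusted p 0.00173) and without Sox4 replicate 3 (0.41, adjusted p 0.0314). Slc25a12 (aralar), the other aspartate carrier, fell from 25.7 ± 3.89 to 15.3 ± 2.64 CPM (log2 fold change -0.75, adjusted p 0.00412), and lost its call with library size alone (-0.29, adjusted p 0.174). Arg2, the mitochondrial arginase, and Slc25a2, a second ornithine carrier, were at or under the floor of 3 counts in all libraries. Slc25a29, a carrier of basic amino acids, was at 1.69 and 1.79 CPM (adjusted p 0.864).

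Ammonia and glutamine handling supplies the cycle with nitrogen and disposes of what it leaves. Of 14 genes listed, 13 were tested, 9 fell and 3 rose, with a median log2 fold change of -1.06. With library size alone 7 were lower and 4 higher. For this list and those that follow, 26.0% of all genes tested were called lower and 29.0% higher with TMM. With library size alone 12.8% of all genes tested were called lower, and most called genes were higher. Car5a, the mitochondrial carbonic anhydrase that provides bicarbonate to CPS1, fell furthest, from 68.9 ± 11.5 to 2.87 ± 1.29 CPM (log2 difference -4.58 ± 0.38, adjusted p 4.65e-06). Gls2, the liver glutaminase that releases ammonia beside CPS1, fell from 644 ± 110.4 to 127 ± 36.6 CPM (-2.35). Glul, the pericentral glutamine synthetase that takes up remaining ammonia, fell from 397 ± 47.5 to 65.0 ± 17.9 CPM (-2.61). The glutamine transporter Slc38a3 (-1.84) and the glutamate transporter Slc1a2 (-1.65) fell as well. Slc1a5, a neutral amino acid transporter with little expression in hepatocytes, rose from 0.876 ± 0.306 to 18.1 ± 1.44 CPM (4.36). Glud1, glutamate dehydrogenase, was named after its values were seen and rose from 1558 ± 48.4 to 2465 ± 180 CPM (0.66, adjusted p 0.00282).

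Aspartate brings the second nitrogen of urea, and fumarate returns to aspartate through malate and oxaloacetate. Of the 13 genes listed for these steps, 11 fell and 1 rose (median log2 fold change -0.63), against 5 and 2 with library size alone. Got1, the cytosolic aspartate aminotransferase, fell from 435 ± 32.1 to 126 ± 39.0 CPM (-1.78), and Mdh1, the cytosolic malate dehydrogenase, from 798 ± 19.7 to 249 ± 38.1 CPM (-1.68). Aspg, an asparaginase (-1.97), and Gpt, alanine aminotransferase (-1.43), fell by similar amounts. Slc25a11, the oxoglutarate carrier, fell by 0.63 on the log2 scale, and lost its call with library size alone (-0.16, adjusted p 0.182).

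Genes that use arginine, ornithine and proline went both ways, with 6 higher and 7 lower of 19 tested out of 23 listed (median log2 fold change -0.05). Such counts lie near the shares over all genes tested, of which 29.0% were called higher and 26.0% lower. The split was 9 and 4 with library size alone. Prodh, which starts the breakdown of proline, fell from 217 ± 51.6 to 16.1 ± 4.69 CPM (-3.76). Agmat, which hydrolyses agmatine to putrescine and urea (-1.52), Gamt of creatine synthesis (-1.28) and Srm, spermidine synthase (-0.96), also fell. Sms, spermine synthase (1.20), was among those that rose. Both tested channels of 5 listed fell, namely Aqp8 (-2.15) and Aqp9 (-0.93), of which the latter passes glycerol and urea. In pyrimidine synthesis, which also draws on carbamoyl phosphate and aspartate, 1 of 5 genes rose and 0 fell, the riser being Ctps, CTP synthase (1.52). In this list 3 of 5 were called higher with library size alone, 2 without Sox4 replicate 3, and 1 was called lower beside the 1 higher without Sox4 replicate 1.

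**Figure D4:**
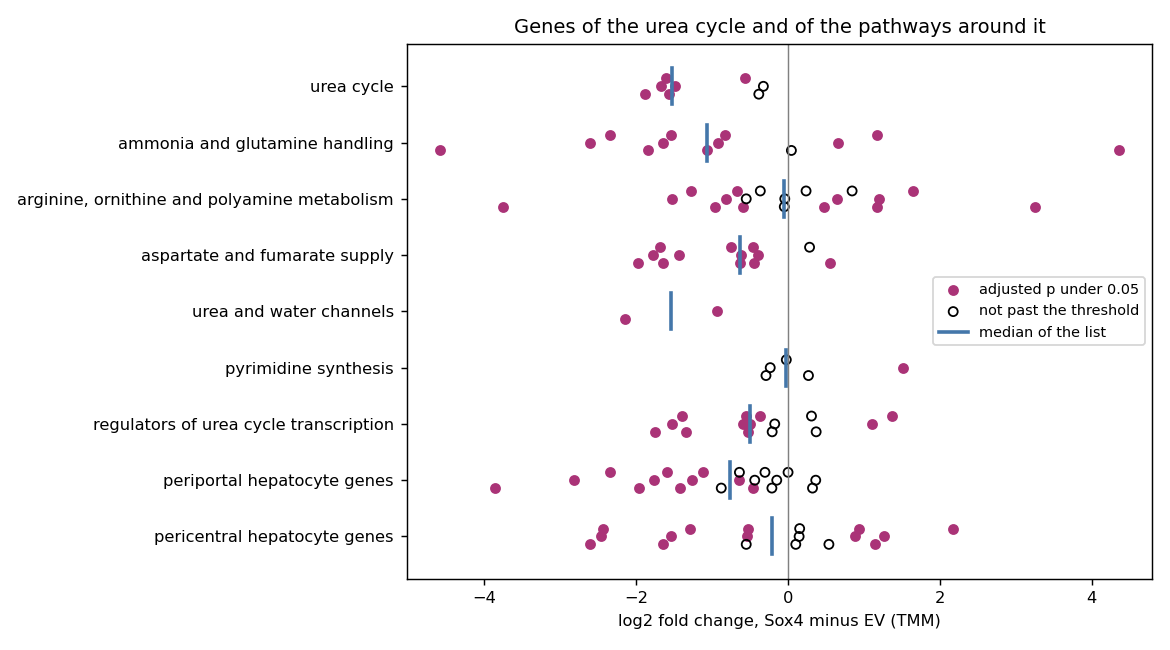
Log2 fold change (TMM), Sox4 minus EV, of each tested gene of the urea cycle and of the lists around it, filled where the adjusted p was under 0.05 and open otherwise, with a blue bar at each list's median. The cycle's 8 genes form a group of 5 between -1.89 and -1.49 and a group of 3 between -0.57 and -0.32, of which Cps1 and Slc25a15 change sign with library size alone, and the surrounding lists hold genes on both sides of 0 except the 2 channels.

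Of 15 genes listed as regulators of urea cycle genes, 9 fell and 2 rose, with a median log2 fold change of -0.50, but with library size alone 4 were lower and 5 higher. Over all genes tested, 26.0% were called lower and 29.0% higher, and 12.8% were called lower with library size alone. The list was drawn up for this report, and the action of its genes on the cycle was not tested. The largest falls were in Klf15 (-1.75), a factor of amino acid breakdown, Nr3c1, the glucocorticoid receptor (104 to 36.3 CPM, -1.52, SE 0.05), Cebpb (-1.40) and Cebpa (-1.34), which encode C/EBP factors. These 4 also fell with library size alone. Hnf4a (-0.60), Creb3l3 (-0.55) and Nr1h4, the bile acid receptor (-0.50), fell less and lost their calls with library size alone. Gcgr, the glucagon receptor, was called narrowly (-0.36, adjusted p 0.0421) and changed sign with library size alone (0.11). Its call was lost without EV replicate 1 (adjusted p 0.107) or 2 (adjusted p 0.0917) and without Sox4 replicate 2 (adjusted p 0.139) or 3 (adjusted p 0.106). Creb1, which encodes a factor of the cyclic AMP response (1.37), and Cbl, which encodes a ubiquitin ligase (1.11), rose. Ppargc1a (0.31), Foxa2 (0.37), Ppara (-0.21) and Sp1 (-0.17) did not pass the test. Ppargc1a was called higher with library size alone (0.78, adjusted p 0.048) and without Sox4 replicate 1 (0.60, adjusted p 0.0158). Foxa2 was called higher with library size alone (0.84, adjusted p 0.00202), with no filter on low counts (0.41, adjusted p 0.021) and without EV replicate 1 (0.54, adjusted p 0.0189). With library size alone, Ppara (0.26) and Sp1 (0.29, adjusted p 0.0347) changed sign, and Sp1 was called.

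The cycle's enzymes belong to the periportal program, and of 20 other periportal genes 11 fell, 0 rose and 9 did not pass the test (median log2 fold change -0.76). With library size alone 9 fell and 2 rose. Pigr (-3.86), Cyp2f2 (-2.81), Gls2, Hal, the histidase (-1.97), Hsd17b6 (-1.76) and Tat, tyrosine aminotransferase (-1.59), fell most. Hsd17b6 lost its call without Sox4 replicate 1 (adjusted p 0.064). Of 18 pericentral genes, 8 fell and 5 rose (median -0.21), against 5 and 7 with library size alone. Beside these lists, 26.0% of all genes tested were called lower and 29.0% higher with TMM. Among those that moved most were Glul, Cyp2e1 (-2.46), Cyp27a1 (-2.43), Slc1a4 (2.17) and Slc1a2. The difference between the periportal and the pericentral list was not tested.

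Markers of other cell types moved between groups too. Of 12 hepatocyte markers 10 fell (6 with library size alone) and 0 rose. Their summed level on TMM-scaled sizes lay between 137000 and 167000 CPM among EV libraries and between 95900 and 107000 among Sox4 libraries. As shares of all counts they held 11.84, 14.04 and 13.34% in EV and 11.29, 11.39 and 12.57% in Sox4. These shares overlapped between groups (two-sided exact permutation p 0.2). Cholangiocyte markers (3 of 5 tested rose, 0 fell; summed CPM 27.8 to 43.9 for EV, 139 to 148 for Sox4) and stellate markers (4 of 6 rose, 0 fell; 9.08 to 48.0 and 88.8 to 145) were higher in Sox4, and 6 of the 10 cholangiocyte markers listed were at the floor in all EV libraries. Kupffer markers rose in 6 of 11, and endothelial markers rose in 3 of 9 and fell in 1 (23.5 to 33.6 and 24.7 to 50.9 CPM). Over all genes tested, 29.0% were called higher, which is near the count for the endothelial list. Counts of markers that rose depended on the library left out, from 4 to 12 for Kupffer, 1 to 7 for stellate and 1 to 3 for endothelial markers. The highest counts came without Sox4 replicate 1 for all 3 lists. The lowest Kupffer count came only without Sox4 replicate 2. For stellate markers the lowest count came without Sox4 replicate 2 or EV replicate 2. For endothelial markers it came without EV replicate 1 or 3 or without Sox4 replicate 2 or 3. The stellate sum was mostly Reln, at 7.08, 22.6 and 37.5 CPM in EV and 126, 117 and 50.8 in Sox4, and Dcn, Col3a1, Rgs5 and Colec11 were instead lowest in Sox4 replicate 1 among the Sox4 libraries. These genes, and those of the erythroid list, were named after their values were seen. The erythroid genes did not move one way. Alas2, the heme synthesis enzyme of red cell precursors and the 1 gene of it tested, fell from between 92.4 and 126 CPM to between 4.10 and 14.6. The globin genes had at most 5 counts in an EV library and at most 22 in a Sox4 library. The lymphoid and neutrophil markers together stayed at 1.07 CPM or less in every library. These sums are small beside those of the hepatocyte markers in every library, and their part in the changes of the cycle's genes was not tested.

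A search was made for genes whose pattern over the 6 libraries was most like the mean of the 8. It covered 2851 genes with a mean level of at least 50 CPM, and left out every gene on a list of this report. Likeness was the root mean square difference of centred log2 CPM. The genes picked were Bckdhb of branched-chain amino acid breakdown (0.058), Fcgrt, the neonatal Fc receptor (0.0738), and Iscu, an iron-sulphur cluster scaffold (0.0825). Gapdh, the glycolytic enzyme (0.0849), and Sdhd, a subunit of succinate dehydrogenase (0.0893), came next. The mean of the 8 genes itself stood at 0.16, 0.04 and -0.20 in the EV libraries and at -1.11, -1.42 and -1.04 in the Sox4 libraries, on the log2 scale relative to the EV mean. This mean lies between the members that fell by more (Arg1, -1.49, and those below it) and those that fell by less (Slc25a13, -0.57, and those above it). The genes picked are thus like an average and not like a single member. Bckdhb had 80.8 ± 5.26 CPM in EV and 35.2 ± 3.67 in Sox4 (log2 fold change -1.20), and the other 4 changed by -1.26 to -1.18.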

How the data were processed

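RNA was measured in 6 libraries, grouped by the treatment in the labels into EV and Sox4 (3 each, numbered as in the titles). Per the labels the authors aligned reads to GRCm39 with STAR 2.7.10b, counted them per gene with featureCounts 2.0.1 and normalized with DESeq2. The deposited files hold raw counts and a normalized signal, each count over its library's size factor; the latter served only an alternative. Annotation release, strand setting and handling of multiply mapped reads are not given in the sources used here, so genes with copies or antisense neighbours are uncertain. The study describes the libraries as separate animals, the labels do not, so p-values measure the spread between these samples, which may be technical.

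The analysis used edgeR 4.0.16 under R 4.3.3. Genes were retained with filterByExpr (minimum count 10, minimum total 15) and scaled by TMM, and the quasi-likelihood F test, robust and without covariate, set Sox4 against EV. Benjamini-Hochberg adjustment ran over every tested gene (threshold 0.05), and every adjusted p is from this fit unless another test or setting is named. Levels are CPM on effective library sizes. The SE is that of the difference in mean log2 CPM (prior count 2), and ratios to the mean of the 8 genes use an added count of 0.5. Shares and ratios were compared by two-sided exact permutation tests. Totals ranged from 15090629 to 16964860 counts, and a floor of 3 counts, 0.231 CPM or less, covers counting error only, as PCR reads are not independent molecules. Replicates differed beyond counting error.

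Alternatives were other scalings and filters, limma 3.58.1 and DESeq2 1.42.0, a replicate block, and each library left out; upper-quartile scaling and ratios to Cps1 were added after the data were seen. The scripts were tested on simulated data. Members, lists and tests were chosen with earlier results of these data known. The rule for named genes took all members, counterparts and regulators, and in other lists up to 6 called genes by size of change with a mean count of at least 100; some of these are counted in list totals but not reported here. Lengths and overlaps are from GENCODE M21 on GRCm38, promoters from RefSeq on GRCm38.p6, another build than that of the counts.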

Additional observations from a re-analysis of the deposited data

How the results depend on the processing

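The count of urea cycle genes called lower was 6 with TMM and between 5 (library size alone) and 8 (without Sox4 replicate 3) over the 15 alternatives, 6 to 8 when each library was left out in turn, and the count over all genes ranged from 5937 to 8094 against 6990. Library size alone reversed Cps1 (0.084), Slc25a15 (0.15), Ppara (0.26), Gcgr (0.11) and Sp1 (0.29, adjusted p 0.0347). Without single libraries Slc25a29 ranged from -0.045 to 0.24, turning negative without EV replicate 1 or 2, and Ppara from -0.38 to 0.00291, turning positive without Sox4 replicate 1. The change of the ratio of Slc25a15 to Cps1 ranged from -0.075 to 0.17, turning negative without EV replicate 1 or Sox4 replicate 3. The share of counts held by Cps1 fell on TMM-scaled library sizes (-0.24 percentage points, exact permutation p 0.1) and without Sox4 replicate 3 (-0.00949). The same share for all 8 genes differed by -0.86 on TMM-scaled sizes and by -0.48 to -0.23 without single libraries. The cause was not tested.

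Same-numbered libraries showed no common pairing, with correlations of their deviations of 0.27, -0.09 and 0.13, and a fit with the replicate number as a block called 7362 genes and 6 of the urea cycle genes. Of the genes named outside the cycle, that replicate block changed the call of Foxa2 alone (0.39, adjusted p 0.0479). With 3 libraries a group, no permutation test can go below p 0.1, and small shifts of Cps1 and the carriers depend on how libraries are scaled.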
